A study of Mus musculus with 8 samples.

Results

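The myogenic transcription factor genes Pax7, Myf5, Myod1, Myog, Mef2a, Mef2c, Mef2d and Six4 were followed through a map of R-loops in mouse muscle stem cells (MuSCs). The genes were picked with earlier results of these data known, their peaks were taken by gene symbol, and 27 of the 28265 R-loop peaks carried one of the 8 symbols. Pax7 held 9 peaks, Mef2a 6, Mef2c 5, Six4 3, Mef2d 2, and Myod1 and Myog 1 each, whereas Myf5 had none. The comparison was between control MuSCs (Ctrl, labelled Pax7CreERT/Suv4-20h1WT) and MuSCs in which Kmt5b, also named Suv4-20h1, had been inactivated (Kmt5b sKO, labelled Pax7CreERT/Suv4-20h1KO), with 3 libraries each. Kmt5b is a methyltransferase that converts monomethylated lysine 20 of histone H4 to its dimethylated form, and the comparison asks whether R-loops differ once it is lost. Both genotypes carried a tamoxifen-inducible Cre recombinase inserted at Pax7 itself, so Pax7 is read here in cells that carry an engineered Pax7 locus in both groups, and recombination was limited to Pax7-expressing cells of tamoxifen-treated adult mice. The cells were isolated from limb and trunk muscle of C57BL/6 mice by density gradient and magnetic sorting and grown in culture with LIF and bFGF. The study describes the libraries of a genotype as biological replicates from separate mice, although the labels name no animal.

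R-loops are structures of an RNA:DNA hybrid and the displaced DNA strand. They form mostly behind transcribing RNA polymerase, and were recovered here with the S9.6 antibody, which binds RNA:DNA hybrids (DRIP-seq). In muscle, Pax7 marks stem cells and maintains them, Myf5 and Myod1 commit cells to the muscle lineage, and Myog drives terminal differentiation. Mef2a, Mef2c and Mef2d encode MADS-box factors that act with the MyoD family on muscle promoters, and Six4 is a homeodomain factor upstream of it. Myf5, Myod1 and Myog proteins bind E-boxes as dimers with E proteins. A DRIP-seq score reports hybrids and not the level of the transcript or protein.

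The values are scores summed over a peak after scaling to spike-in DNA of Drosophila S2 cells, so they grow with peak length and have no absolute unit. The summed score over all peaks was 3893768 to 4729631 in the Ctrl libraries and 4699599 to 4930261 in the Kmt5b sKO libraries. Ctrl replicate 2 had the highest total of its group, and it was also the highest Ctrl library for all 7 member genes with a peak. The score over Kmt5b itself was 412, 658 and 420 in Ctrl and 440, 449 and 484 in Kmt5b sKO, which does not check the genotype because the score of a whole peak does not read the deleted exons apart. Of 10 markers of muscle stem cells and myoblasts, 6 had a peak (Pax7, Myod1, Itga7, Chrna1, Des and Sdc4), with a summed score of 4994 to 6084 in Ctrl and 5520 to 5825 in Kmt5b sKO, whereas Myf5, Cdh15, Vcam1 and Calcr had none. Among the markers of other cells in muscle, none of 6 fibro-adipogenic, 5 immune and 3 glial genes had a peak. Of 5 endothelial genes, Cdh5 and Kdr had no peak. The peaks of the other endothelial genes, Flt1, Pecam1 and Tek, summed to 240 to 256 in Ctrl and 399 to 494 in Kmt5b sKO. Of 5 mural and smooth muscle genes, Rgs5, Pdgfrb, Abcc9 and Myh11 had no peak. The peaks of Cspg4 summed to 463 to 537 in Ctrl and 572 to 727 in Kmt5b sKO. The part of other cell types in the results below was not tested.

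Few R-loop peaks of the myogenic factors passed the test between genotypes, and those that did lay in the introns of Mef2a and near the start of Six4. Of the 27 peaks, 25 had a mean score above 30 and were tested. Each limma SE, p and interval rests on the variance shared by peaks of similar score, not on the spread of the peak's own libraries. A peak was called at a limma adjusted p below 0.1, taken over all 25815 tested autosomal peaks, with a fold change above 1.5. By this rule 4 member peaks were higher in Kmt5b sKO, which is 16.0% of those tested, against 32.9% of all tested peaks. No member peak was lower, against 0.883% of all tested peaks, and 1 member peak had an unadjusted p under 0.05 in that direction. The 4 higher peaks were 3 of the 6 in Mef2a and 1 of the 3 in Six4. The median log2 fold change of the member peaks was 0.13, with a range from -0.29 to 0.98, beside a median of 0.35 over all tested peaks. Of the 25, 18 were above 0 and 7 below, and 20 lay below the median of all tested peaks. Among tested member peaks, the 3 Kmt5b sKO libraries lay entirely above the 3 Ctrl libraries in 5, against 41.5% of all tested peaks, and entirely below in 2, against 3.81%.

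**Figure D1:**
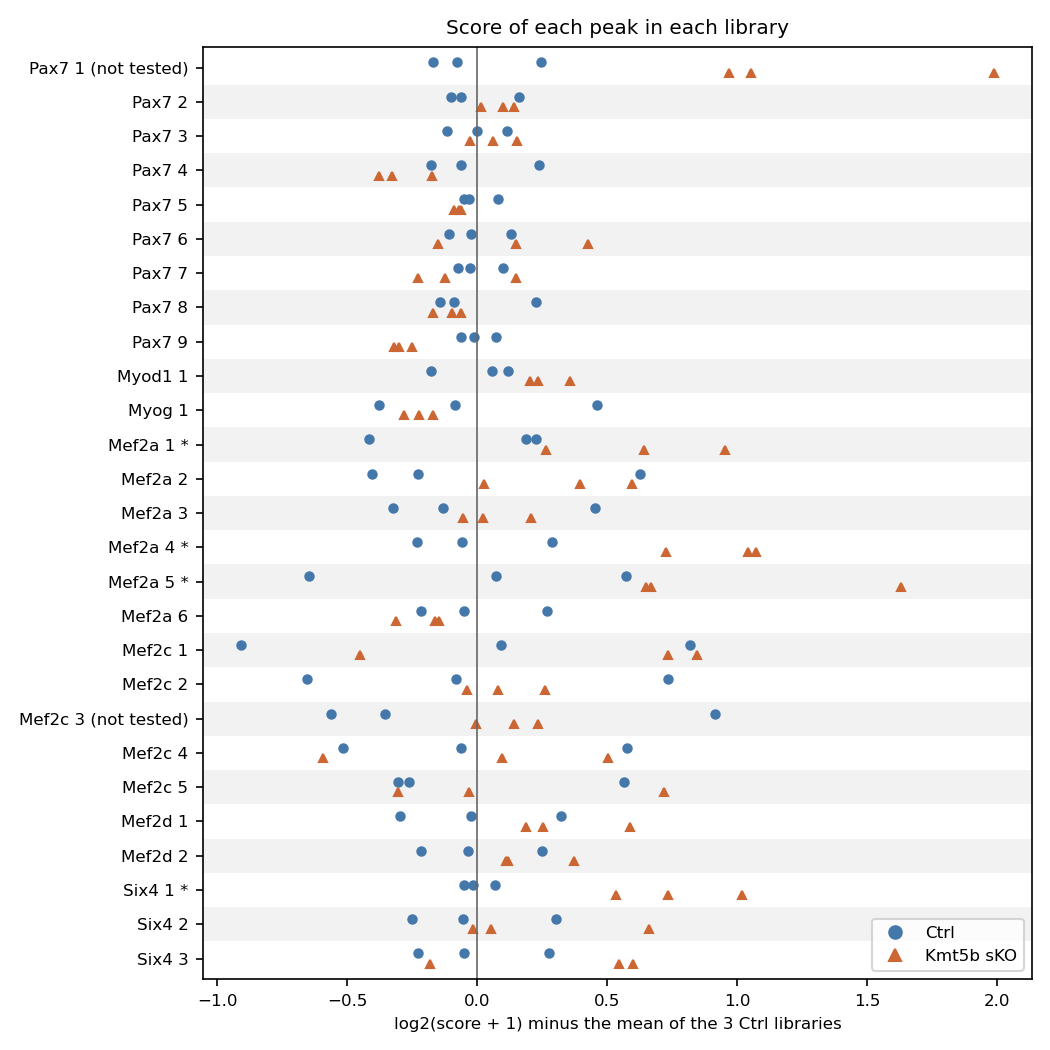
Score of each of the 27 member peaks in each library, as log2(score + 1) minus the mean of the 3 Ctrl libraries; blue circles are Ctrl, orange triangles Kmt5b sKO, and an asterisk marks a peak called higher. The Kmt5b sKO libraries stand clear of the Ctrl libraries in Mef2a peak 4, Six4 peak 1 and the untested Pax7 peak 1, and lie just above them in Mef2a peaks 1 and 5, while most other peaks overlap.

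Scaling decided how many of these peaks were called. With the spike-in scaling as deposited, the median of all tested peaks was 0.35. When each library was brought to the same total, this median was lowered by 0.20, and 2 member peaks (Mef2a peaks 4 and 5) were called higher and 0 lower, against 21.6% and 3.12% of all tested peaks. Quantile normalization lowered it by 0.36, and 1 member peak (Mef2a peak 4) was called higher and 0 lower, against 8.02% and 7.7%. Centring on the median peak lowered it by 0.48, and 0 member peaks were called higher and 5 lower, against 9.73% and 13.2%. Changes below are those of the deposited scaling unless stated.

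**Figure D2:**
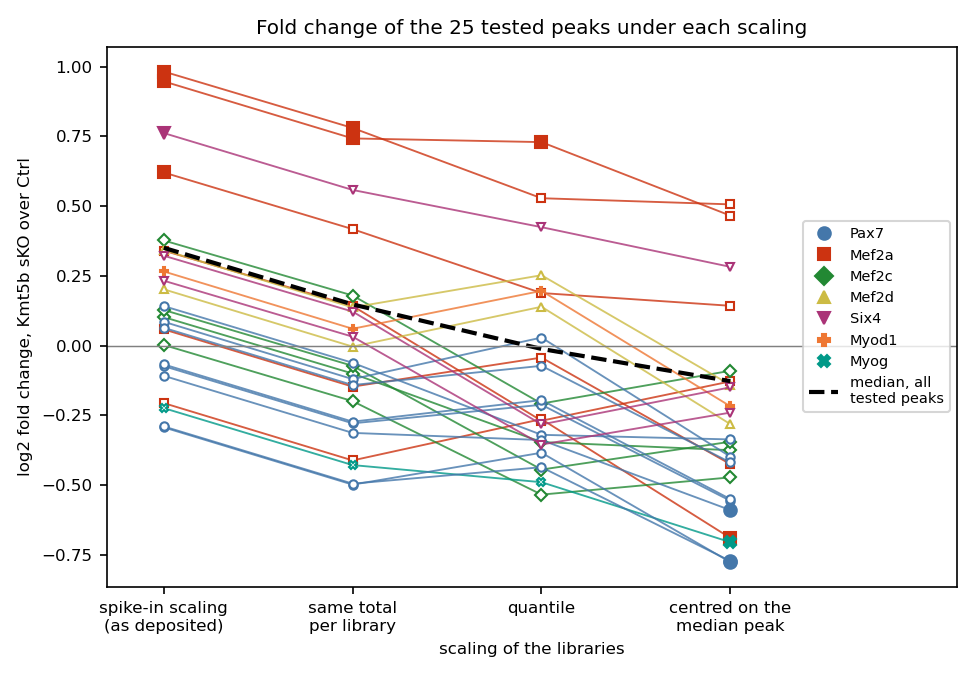
Log2 fold change (Kmt5b sKO over Ctrl) of the 25 tested member peaks under the deposited spike-in scaling and 3 other scalings; large filled symbols are called peaks, small open symbols are not, and the dashed line is the median of all tested peaks. Mef2a peaks 1, 4 and 5 and Six4 peak 1 stay above 0 and above the dashed line under all 4 scalings. Peaks of Pax7 and Myog stay below that line or close to it.

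Pax7, the paired-box factor of MuSCs, was covered by R-loop peaks over most of its length. It lies at chr4:139737062-139833528 on the minus strand (mm10), and peaks covered 76.6% of it. Peaks are numbered in the direction of transcription. Peak 2, of 17600 bp, was the longest of all member peaks and began 3728 bp past the annotated start. The summed score over Pax7 was 2808, 3046 and 2651 in Ctrl and 2709, 2769 and 2668 in Kmt5b sKO, with a ratio of the means of 0.958 (exact permutation test, two-sided, p = 0.5, n = 3 and 3). The genotypes overlapped, and none of the 8 tested peaks was called. Their log2 fold changes ran from -0.29 to 0.14, with 5 below 0 and 3 above, and with the same total per library all 8 were below 0.

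Among the tested Pax7 peaks the largest differences were in peaks 4 and 9, and neither was called. Peak 4, which is intronic and had the highest score per kb of the Pax7 peaks tested in Ctrl, had 519, 639 and 478 in Ctrl and 480, 416 and 431 in Kmt5b sKO. The Ctrl library with 478 lay just below the highest Kmt5b sKO library, so the groups overlapped. Its log2 fold change was -0.29 (limma SE 0.14, adjusted p = 0.090), which is below the fold minimum for a call. Peak 9, over the end of the gene, was singled out after its values were seen, with 312, 343 and 323 in Ctrl and 264, 274 and 261 in Kmt5b sKO. The groups did not overlap, and the log2 fold change was -0.29 (limma SE 0.15, adjusted p = 0.12). Peak 5 was also lower in every Kmt5b sKO library, by a log2 change of -0.07 only.

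At the GENCODE start of Pax7 lay a short peak of low score. Peak 1, chr4:139833200-139833799, was the shortest of the member peaks at 600 bp, with the highest mean score per kb of the gene over the 6 libraries. It was the only Pax7 peak over the start annotated in GENCODE. The RefSeq promoter of Pax7, chr4:139832919-139833218, lies further along the direction of transcription, with 6.0% of it in this peak. By RefSeq, the whole of peak 1 therefore lies upstream of the start. Peak 1 scored 15, 14 and 19 in Ctrl and 34, 32 and 66 in Kmt5b sKO, and every Kmt5b sKO library was above every Ctrl library. Its mean score was 30 exactly, at the limit for testing, so it was not tested. Without the limit on the score, where 33.5% of all peaks were called higher, its log2 fold change was 1.34 (limma SE 0.41, adjusted p = 0.0055). The 3 nearest intergenic peaks upstream of Pax7, at 5.67, 8.27 and 15.1 kb, were all called higher, with log2 fold changes of 0.65, 1.15 and 1.15. They are 1800, 1200 and 2000 bp long. Of all tested peaks, 67.8% of those up to 1200 bp and 47.5% of those of 1400 to 2000 bp were called higher. The 200 bases around the GENCODE start (chr4:139833429-139833628, GRCm38, minus strand) lie inside peak 1 and are shown as its sequence at that start. The score is 1 value for the whole peak, so it does not place a difference within the peak. Runs of 4 or more G on the gene strand are in capitals.
Pax7 start window: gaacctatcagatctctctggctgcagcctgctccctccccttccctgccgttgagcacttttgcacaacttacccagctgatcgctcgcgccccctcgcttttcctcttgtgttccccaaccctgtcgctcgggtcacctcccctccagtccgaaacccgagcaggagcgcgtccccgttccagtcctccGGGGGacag
The window holds 84 C and 42 G on the gene strand. It has 1 run of G, and 38.0% of central 200-base windows of all tested peaks with a gene hold such a run.

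Of the MyoD family members, Myf5 had no R-loop peak, and Myod1 and Myog were each covered whole by a single peak. The nearest peaks to Myf5 (chr10:107482908-107486134) were an intergenic one 49.7 kb downstream and one in Ptprq 178 kb away on the other side. The intergenic one, chr10:107432200-107433199, scored 21, 35 and 29 in Ctrl and 52, 53 and 79 in Kmt5b sKO, with no overlap and a log2 fold change of 1.09 (limma SE 0.32, adjusted p = 0.0031). A short gene without a peak was the usual case. Among autosomal coding genes within 1.5 times the length of Myf5, 12.4% had a peak, against 36.6% of all autosomal coding genes. The same share was 10.5% for genes near Myod1 in length and 10.4% for genes near Myog.

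Myod1, the factor that can convert other cells to muscle, had the highest score per kb of the 8 genes. Its peak, chr7:46371800-46382399, ran from -4673 to 5926 bp of the start, over the whole gene and both flanks, and scored 548, 571 and 466 in Ctrl and 606, 620 and 675 in Kmt5b sKO. Of the peak, 24.8% lies inside the gene, so its score per kb is taken mostly over flanking sequence. Every Kmt5b sKO library was above every Ctrl library. The log2 fold change was 0.27 (limma SE 0.14, adjusted p = 0.12), which missed the threshold. On the sums the ratio was 1.20 (exact permutation test, p = 0.1, the smallest that 3 libraries against 3 allow, and 0.35 after Benjamini-Hochberg adjustment over the 7 genes). The direction depended on scaling, as the log2 fold change was -0.22 after centring on the median peak.

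Myog, the differentiation factor, did not pass the test. Its peak, chr1:134289800-134293399, began 188 bp before the start and scored 116, 208 and 142 in Ctrl and 134, 129 and 124 in Kmt5b sKO. The Kmt5b sKO libraries lay inside the range of the Ctrl libraries, of which replicate 2 was the highest. The log2 fold change was -0.22 (limma SE 0.18, adjusted p = 0.34), and without Ctrl replicate 2 it was 0.0065. Downstream of Myog, 1 of the 6 peaks assigned to the neighbouring gene Ppfia4 was called lower, with a log2 fold change of -0.71 (limma SE 0.32, adjusted p = 0.067).

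The promoters of Myog and Myf5 are shown for contrast, since 84.3% of the first lies in an R-loop peak and 0% of the second. Both are RefSeq promoters on GRCm38.p6, with 250 bases before and 50 after the start, at chr1:134289754-134290053 (plus strand) and chr10:107486085-107486384 (minus strand). Capitals mark E-boxes (CANNTG, which reads the same on both strands) and the core of a MEF2 site (CTA and TAG set apart by 4 bases, likewise).
Myog promoter: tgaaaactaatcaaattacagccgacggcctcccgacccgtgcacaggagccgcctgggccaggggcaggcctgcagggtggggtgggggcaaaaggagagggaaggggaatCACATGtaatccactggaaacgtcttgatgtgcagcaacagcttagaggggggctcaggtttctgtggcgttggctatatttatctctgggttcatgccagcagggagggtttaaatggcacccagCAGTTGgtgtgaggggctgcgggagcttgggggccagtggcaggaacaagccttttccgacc
Myf5 promoter: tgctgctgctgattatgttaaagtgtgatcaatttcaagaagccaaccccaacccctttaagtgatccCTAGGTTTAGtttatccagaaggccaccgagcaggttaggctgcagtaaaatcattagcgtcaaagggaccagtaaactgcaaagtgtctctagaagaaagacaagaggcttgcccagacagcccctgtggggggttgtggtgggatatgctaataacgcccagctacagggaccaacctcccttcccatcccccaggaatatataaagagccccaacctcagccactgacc
The Myog promoter holds 2 E-boxes and no match to this MEF2 pattern, and the Myf5 promoter holds 1 match to the MEF2 core and no E-box. In Myog the stretch ctatatttat misses the pattern by its last base only. A strict pattern can pass over a site, so these matches do not tell which promoter has a working MEF2 site. The 4 middle bases of the Myf5 core are not all A or T, so it does not match the full MEF2 consensus. Of the members' promoters, that of Mef2a alone matched the consensus, once, as did 3.19% of all promoters. Over 32851 promoters of this length, 72.3% held an E-box and 3.69% the MEF2 core. Promoter entries were found for 7 of the 8 genes, all but Myod1. The share in an R-loop peak was also 0% for Mef2a, Mef2c and Mef2d, 6.0% for Pax7 and at most 1.67% for Six4. Among these 7 genes Myog was thus the exception, and the absence at Myf5 was not particular to it. Myod1 could not be counted here, but its peak covers the annotated start, from -4673 to 5926 bp of it. The GC content was 58.3% in the Myog promoter and 49.7% in the Myf5 promoter.

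Mef2a, a widely expressed member of the MEF2 family, held 3 of the 4 called member peaks. It lies at chr7:67231163-67372858 on the minus strand, and the 6 peaks that carry its symbol covered 24.4% of it, beginning 11058 bp past the start. That share leaves out 4 peaks of 24800, 2800, 2200 and 22400 bp that overlap the gene but carry the symbol Lysmd4. The locus is thus covered more widely than the share states. The 3 called peaks, numbers 1, 4 and 5, overlap no exon of Mef2a, and they are 2200 to 4800 bp long. The largest peak, number 6, which overlaps an exon and also the opposite-strand gene Lysmd4, was not called.

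Mef2a peak 4, chr7:67334400-67339199, scored 107, 154 and 121 in Ctrl and 209, 260 and 266 in Kmt5b sKO. The lowest Kmt5b sKO library was well above the highest Ctrl library, and the log2 fold change was 0.95 (limma SE 0.17, adjusted p = 1.4e-06). Peak 5, chr7:67329200-67331599, scored 30, 50 and 71 in Ctrl and 149, 76 and 75 in Kmt5b sKO. Its groups did not overlap but came close, as 2 Kmt5b sKO libraries lay just above the highest Ctrl library. The log2 fold change was 0.98 (limma SE 0.23, adjusted p = 0.00028). With the variance of peak 5 alone in place of the variance shared across peaks, the adjusted p was 0.22.

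Mef2a peak 1, chr7:67359600-67361799, was the weakest of the calls, with 47, 72 and 74 in Ctrl and 99, 123 and 76 in Kmt5b sKO. Kmt5b sKO replicate 3 was barely above the highest Ctrl library. The log2 fold change was 0.62 (limma SE 0.22, adjusted p = 0.016). The call was lost without Ctrl replicate 1, at 0.41, and without Kmt5b sKO replicate 2, at 0.45. Peak 6, chr7:67304400-67317599, had the highest score per kb of the gene in Ctrl and scored 664, 929 and 745 there and 698, 622 and 689 in Kmt5b sKO. The groups overlapped, and its log2 fold change was -0.21 (limma SE 0.14, adjusted p = 0.23).

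The summed score over Mef2a was 1232, 1871 and 1450 in Ctrl and 1636, 1634 and 1605 in Kmt5b sKO, and the means stood at a ratio of 1.07 (exact permutation test, p = 0.7). The Kmt5b sKO libraries lay within the Ctrl range, so the called introns did not show in the sum. The 4 peaks over Mef2a that are assigned to Lysmd4 in the deposited table are not in this sum, and the deposited scores are not split by strand. One of them, chr7:67252600-67255399, was called higher at a log2 fold change of 0.92 (limma SE 0.19, adjusted p = 2.4e-05). The largest of them, chr7:67227600-67252399, had a log2 fold change of -0.47 (limma SE 0.13, adjusted p = 0.0025), below the fold minimum. With these peaks counted to Mef2a, the ratio of its sums was 0.928, and 4 of its 10 peaks were called higher.

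In each called Mef2a peak, the 120 bases with the largest excess of G over C on the gene strand are shown, since R-loops are known to be favoured where the RNA is rich in G. Runs of 4 or more G are in capitals, and the stretches were chosen for their G and are not typical of the peaks. They lie at chr7:67361666-67361785, chr7:67338940-67339059 and chr7:67329691-67329810 (GRCm38, minus strand).
Mef2a peak 1 window: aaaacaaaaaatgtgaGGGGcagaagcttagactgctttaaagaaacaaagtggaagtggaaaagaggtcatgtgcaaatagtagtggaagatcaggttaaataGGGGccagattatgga
Mef2a peak 4 window: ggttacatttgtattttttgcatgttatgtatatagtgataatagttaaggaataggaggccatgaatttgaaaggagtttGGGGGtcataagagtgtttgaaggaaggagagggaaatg
Mef2a peak 5 window: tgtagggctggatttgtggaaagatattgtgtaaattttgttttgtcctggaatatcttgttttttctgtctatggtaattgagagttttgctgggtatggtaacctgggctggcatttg
These windows hold 36, 38 and 35 G against 11, 5 and 11 C, and 2, 1 and 0 runs of G. Of central 120-base windows of all tested peaks with a gene, 25.7% hold such a run. The window of peak 5 is soft-masked as repeat throughout, and so is 82.8% of the whole peak, where keeping uniquely aligned reads alone, as the study's methods state, can leave stretches unread. The GC content of the 3 peaks was 38.3%, 36.0% and 36.7%.

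Mef2c and Mef2d, the other MEF2 genes, had no called peak. Mef2c, at chr13:83504034-83667080, had the sparsest coverage of the genes with a peak, 6.13% of its length. Its summed score was 150, 362 and 200 in Ctrl and 247, 230 and 270 in Kmt5b sKO, and the means stood at a ratio of 1.05 (exact permutation test, p = 0.9). Ctrl replicate 2 was the highest Ctrl library in all 5 peaks, and without it the ratio was 1.42. Mef2c peak 1 scored 15, 52 and 31 in Ctrl and 49, 21 and 53 in Kmt5b sKO, with a log2 fold change of 0.38 (95% interval -0.36 to 1.11). Peak 5, the highest per kb, scored 33, 61 and 34 against 40, 33 and 68, with a log2 fold change of 0.13 (95% interval -0.47 to 0.73). The groups overlapped in every Mef2c peak, and these intervals hold changes of more than 1.5-fold upward. The intervals rest on the shared variance. With the variance of each peak alone, the SE was 0.65 in place of 0.37 for peak 1 and 0.42 in place of 0.31 for peak 5. Peak 3 had a mean score of exactly 30 and was not tested.

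Mef2d, at chr3:88142372-88172086, had its 2 long peaks over 85.1% of the gene. Peak 1, chr3:88144800-88158599, scored 372, 572 and 450 in Ctrl and 545, 688 and 521 in Kmt5b sKO. Only the second Ctrl library reached into the range of Kmt5b sKO, and the log2 fold change was 0.34 (limma SE 0.14, adjusted p = 0.043), below the fold minimum. After centring on the median peak it was -0.14. Peak 2 scored 470, 649 and 532 against 593, 706 and 590, with overlap and a log2 fold change of 0.20 (95% interval -0.07 to 0.47). It also overlaps the antisense gene 1700113A16Rik, whose hybrids cannot be told apart from those of Mef2d.

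Six4, the homeodomain factor, rose at its 5′ end. Peak 1, chr12:73110800-73113199, starts 256 bp past the annotated start, overlaps an exon and had the highest GC content of all member peaks, 61.5%. It scored 86, 81 and 79 in Ctrl and 137, 167 and 119 in Kmt5b sKO, and the Ctrl libraries lay close together and well below all Kmt5b sKO libraries. The log2 fold change was 0.76 (limma SE 0.20, adjusted p = 0.00081). With the same total per library it was 0.56, below the fold minimum. Peak 3, over the end of the gene and the highest per kb in Ctrl, scored 30, 43 and 34 against 54, 52 and 31, with overlap and a log2 fold change of 0.32 (95% interval -0.31 to 0.96).

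The summed score over Six4 was 149, 173 and 151 in Ctrl and 232, 258 and 213 in Kmt5b sKO, a ratio of 1.49 with no overlap (exact permutation test, p = 0.1, adjusted 0.35). It was the largest ratio of the 7 genes, and it was 1.06 after centring on the median peak. Around Six4 (chr12:73099609-73113456), the nearest downstream intergenic peak was called higher at 1.07 on the log2 scale, from 32, 18 and 23 in Ctrl to 33, 85 and 47 in Kmt5b sKO. That peak is 1000 bp long, and 67.8% of all tested peaks up to 1200 bp were called higher. In the upstream neighbour Mnat1, 1 of the 3 nearest tested peaks was called higher, at 1.02. The window of Six4 peak 1 with the most G over C (chr12:73111215-73111334, GRCm38, minus strand) is shown beside those of the Mef2a introns, chosen in the same way.
Six4 peak 1 window: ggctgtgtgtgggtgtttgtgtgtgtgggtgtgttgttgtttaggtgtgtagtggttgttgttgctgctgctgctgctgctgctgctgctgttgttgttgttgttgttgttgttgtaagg
It holds 49 G and 10 C, no run of 4 G, and is 90.0% soft-masked, against 14.5% of the whole peak.

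**Figure D3:**
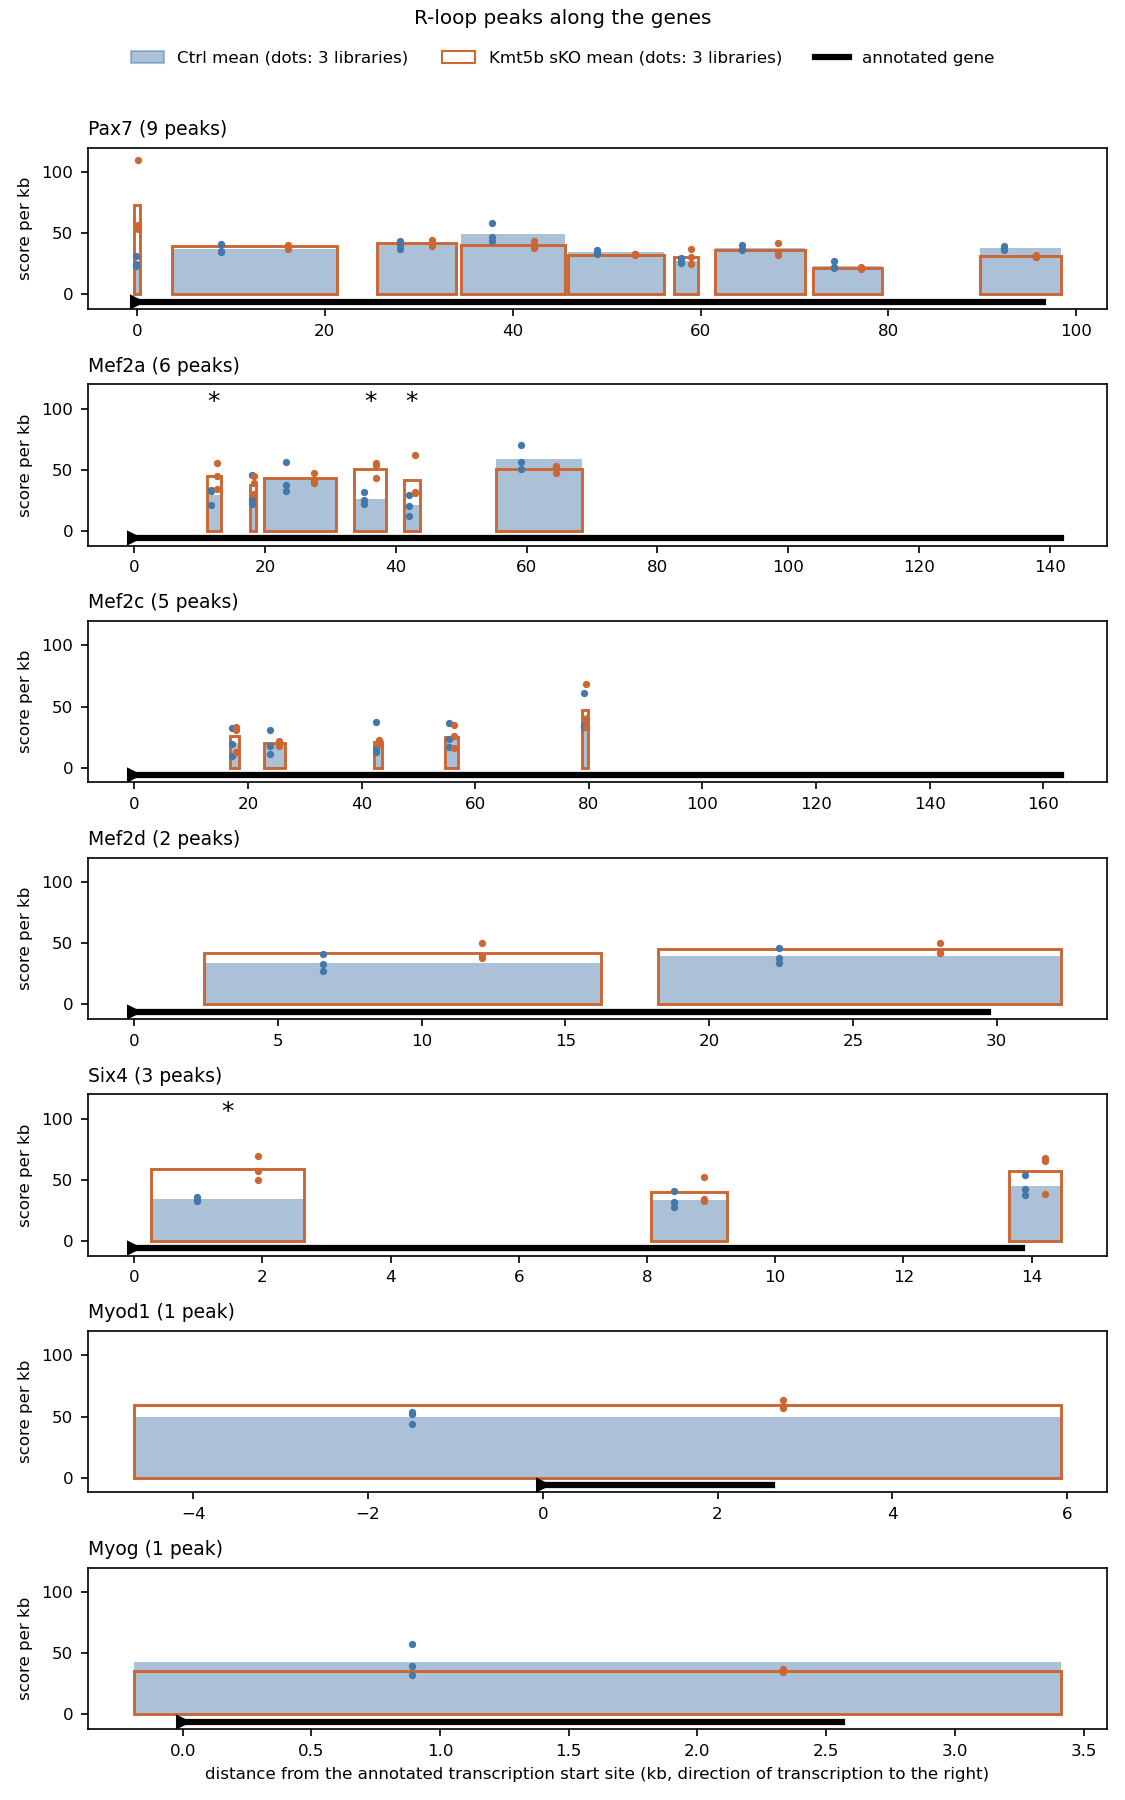
Score per kb of each member peak along its gene, from the annotated start site (kb, direction of transcription to the right); filled bars are Ctrl means, outlined bars Kmt5b sKO means, dots single libraries, and asterisks peaks called higher, with peaks over Mef2a that are assigned to Lysmd4 left out. Peaks assigned to Pax7, Mef2d, Myod1 and Myog cover most of the length of these genes. The untested Pax7 peak at the GENCODE start is higher in Kmt5b sKO, and the asterisks fall on the short intronic peaks of Mef2a and the 5′ peak of Six4.

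Because scores grow with length, levels were compared between genes per kb of peak. In Ctrl, Myod1 was highest with 49.8 ± 5.2 (SD, n = 3) per kb, followed by Mef2a with 43.9 ± 9.4, Myog with 43.1 ± 13.2 and Pax7 with 37.3 ± 2.6. Mef2d had 36.5 ± 6.9, Six4 35.8 ± 3.0 and Mef2c 23.7 ± 11.1. Each neighbouring pair in this order overlapped in its libraries. In Kmt5b sKO the order was Myod1 with 59.8 ± 3.4, Six4 with 53.3 ± 5.1, Mef2a with 47.0 ± 0.50, Mef2d with 43.7 ± 5.6, Myog with 35.8 ± 1.4, Pax7 with 35.7 ± 0.67 and Mef2c with 24.9 ± 2.0. There the libraries of Six4 lay above those of Mef2a, those of Mef2d above Myog and those of Pax7 above Mef2c, and the other neighbours overlapped. Among 8344 genes with peaks, the Ctrl level of Myod1 was at percentile 94.97, that of Pax7 at 79.7 and that of Mef2c at 10.7. The Myod1 level is taken mostly over sequence that flanks the gene.

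**Figure D4:**
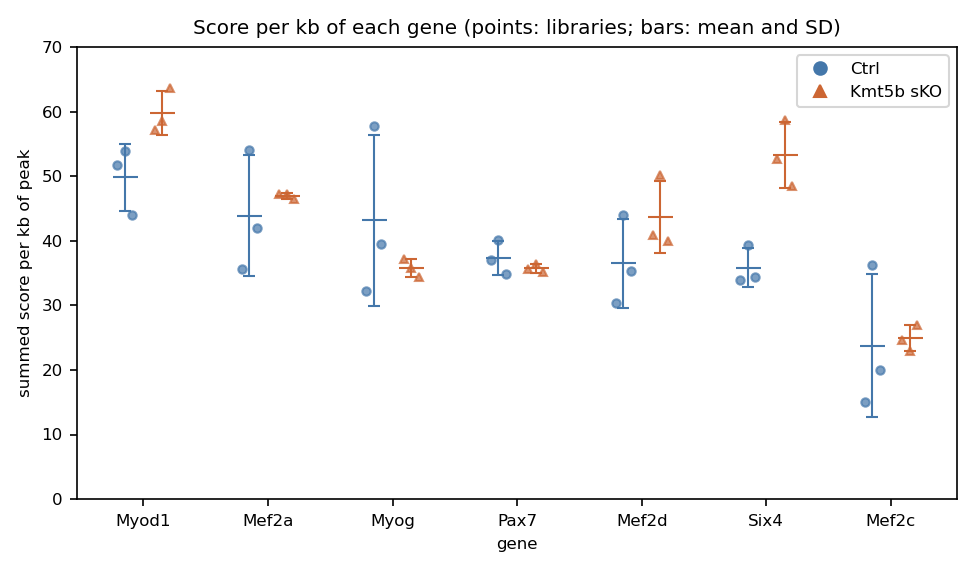
Summed score per kb of peak for each of the 7 genes with a peak; points are libraries (blue circles Ctrl, orange triangles Kmt5b sKO), bars the mean and SD. Six4 and Myod1 are the genes whose groups do not overlap, and Ctrl replicate 2 gives the highest Ctrl point in every gene.

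Shares within a gene do not depend on the scaling of a library, so they were compared for the 5 genes with more than 1 peak. Of 25 such shares, 4 were higher in all Kmt5b sKO libraries than in any Ctrl library, which is 16.0%, against 14.3% of all peaks in such genes. A further 4 were lower in all, against 11.5%. In Mef2a, peak 4 held 8.69%, 8.23% and 8.34% of the summed score in Ctrl and 12.8%, 15.9% and 16.6% in Kmt5b sKO. Peak 6 held 53.9%, 49.7% and 51.4% in Ctrl and 42.7%, 38.1% and 42.9% in Kmt5b sKO. The libraries did not overlap for either share (exact permutation test, p = 0.1 for each, the smallest possible), and separation of this kind was about as common among all peaks in such genes.

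In Pax7, 2 shares were separated upward and 2 downward, and with member shares separated about as often as those of all peaks, these values are a description. The share of peak 1 went from 0.570% ± 0.13 (SD, n = 3) in Ctrl to 1.63% ± 0.73 in Kmt5b sKO, and that of peak 2 was 22.9% ± 0.83 and 25.4% ± 0.72. Peak 4 held 19.2% ± 1.6 in Ctrl and 16.3% ± 1.4 in Kmt5b sKO, and peak 9 held 11.5% ± 0.58 and 9.81% ± 0.078, again with no overlap of the libraries. In Mef2d the share of peak 1 was 45.6% ± 1.3 in Ctrl and 48.0% ± 1.2 in Kmt5b sKO. No share of a Mef2c or Six4 peak was separated in this way.

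The length of a peak moved with its fold change across the whole map. Of tested peaks up to 1200 bp, 67.8% were called higher, against 24.8% at 2200 to 3400 bp, 10.9% at 3600 to 6000 bp and 4.08% over 6000 bp. Member peaks were longer than most, with a median of 3800 bp beside 2200 bp for all peaks. Over 6000 bp lay 12 tested member peaks, of which 0 were called and whose median log2 fold change was -0.0047 beside 0.05 for all tested peaks of that class. At 2200 to 3400 bp, 3 of 5 member peaks were called, and at 3600 to 6000 bp 1 of 3. Of the 4 tested member peaks up to 1200 bp, 0 were called, although most peaks of that length were. The part of peak length in the differences between member genes was not tested.

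**Figure D5:**
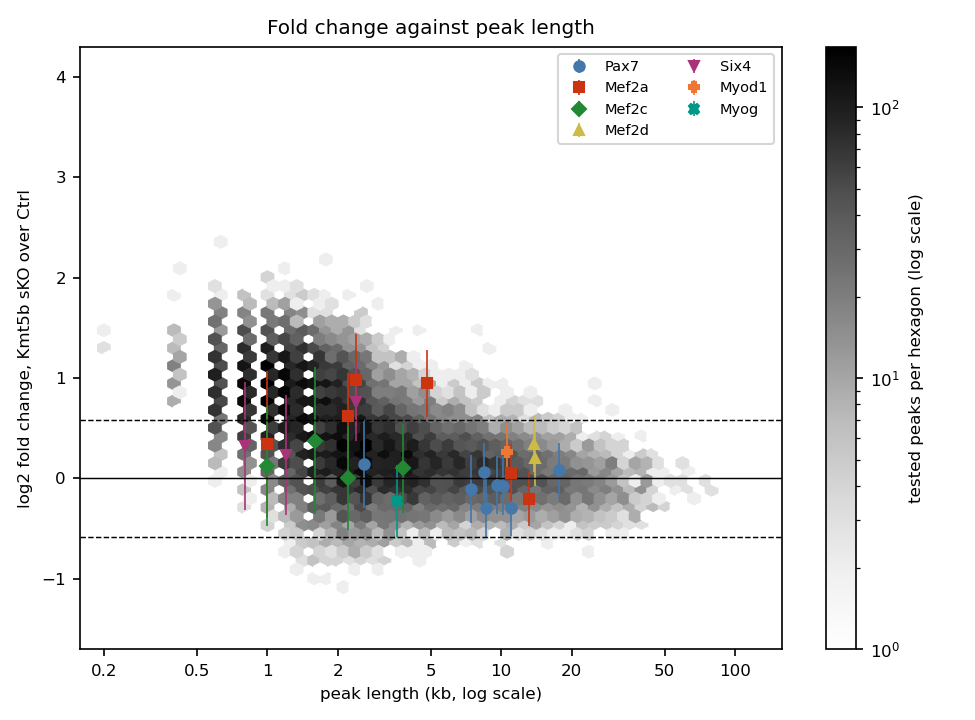
Log2 fold change (Kmt5b sKO over Ctrl) against peak length (kb, log axis) for all tested peaks (grey hexagons, shaded by number) and for the 25 tested member peaks (coloured symbols by gene, with 95% intervals); dashed lines mark 1.5-fold. Long member peaks of Pax7, Mef2d and Myod1 lie near 0 with the bulk of long peaks, and Mef2a peak 4, of 4800 bp, lies above most peaks of its length.

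The GC content was 44.8% to 57.3% in the peaks of Pax7, Myod1, Myog and Mef2d and 33.5% to 41.6% in those of Mef2a and Mef2c. Six4 lay on both sides, with 61.5% in peak 1 and 40.8% and 39.8% in peaks 2 and 3. The member median was 44.8%, beside 42.9% over all tested peaks with a gene. The skew of G over C on the gene strand had a median of 0.04, beside 0.05. Of the 4 called peaks, those of Mef2a lay at the low end of GC content and that of Six4 at the top. In all, 13 of the 27 peaks overlapped no exon of the gene, 3 covered the start and 5 the gene end.

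Among genes around the myogenic factors in the network, few peaks were called. Of 15 upstream and paralogous factors, 7 had a peak, and 3 of 23 tested peaks were higher and 1 lower. Their median was -0.02 on the log2 scale. Eya3, a cofactor of Six4 and its relatives, was called higher at 1.05 (limma SE 0.33, adjusted p = 0.0068). Its peak scored 13, 49 and 28 in Ctrl and 69, 48 and 52 in Kmt5b sKO, so the groups overlapped. Eya4, a relative of Eya3, was lower over a peak of 27400 bp, from 1633, 2231 and 1667 in Ctrl to 921, 950 and 922 in Kmt5b sKO. The log2 fold change of Eya4 was -0.97 (limma SE 0.13, adjusted p = 5.6e-11). Its groups did not come near each other.

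Of 14 E proteins and inhibitors of basic helix-loop-helix factors, 8 had a peak, and 5 of 76 tested peaks were higher and 1 lower, with a median of 0.08. Id1, which sequesters E proteins, rose over a 10000 bp peak from 327, 296 and 305 in Ctrl to 471, 516 and 455 in Kmt5b sKO, a log2 fold change of 0.63 (SE 0.15). Peaks of the E protein genes Tcf12 and Tcf4 were higher at 1.03 and lower at -0.61. Among 20 cofactors and repressors of MEF2 and MyoD, 18 had a peak, and 15 of 105 tested peaks were higher and 1 lower, with a median of 0.17. The acetyltransferase gene Ep300 rose by 1.04 and Tead2 by 0.99, whereas 1 peak of Hdac4, a deacetylase that represses MEF2, was lower at -0.73 (limma SE 0.28, adjusted p = 0.025). Of 16 muscle target genes, 10 had a peak, and 1 of 17 tested peaks was higher and 0 lower, with a median of -0.03. That peak, in Musk, a receptor kinase of the neuromuscular junction, scored 23, 17 and 18 in Ctrl and 48, 81 and 52 in Kmt5b sKO. The shares called higher were 13.0%, 6.58%, 14.3% and 5.88% in the order of these lists, each below the 32.9% of all tested peaks, and the median length of their peaks was 6000, 3500, 3400 and 9200 bp.

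The genes whose levels were most like those of each member were found by the distance of the log2 score per kb over the 6 libraries, among genes with a similar length of peaks. For Pax7 these were Ubap1 and Prep, at 0.13 each, among 1554 genes. They were Fis1 and Wdr83 for Myod1 at 0.18 each, Fbxo17 and Znf322 for Myog at 0.27 and 0.30, and Actr3 and Chordc1 for Mef2a at 0.16 each. For Mef2c they were Cacna1s and Vps13c at 0.22 and 0.34, for Mef2d Ypel4 and Copa at 0.15 and 0.16, and for Six4 Eif3k and Pvr at 0.15 and 0.18.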

How the data were processed

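DRIP-seq with the S9.6 antibody was done on cultured MuSCs, 3 libraries of Ctrl and 3 of Kmt5b sKO, and 1 input library per genotype was not used here. Reads were trimmed (Trimmomatic 0.39), aligned to mm10 with STAR 2.7.3a, deduplicated with Picard 2.21.7 and checked with FastQC 0.11.8, per the submitters' processing notes, which also list SICER 0.0.41. The methods name Epic2, an implementation of SICER, as the peak caller, run against input with blacklisted regions left out, and keep unique alignments. The authors merged peaks into 1 union set and deposited, for each peak and library, a spike-in normalized score rounded to whole numbers. The spike-in signal behind each score and the read depth were not analysed here, so no counting error is given. The first gene symbol given for a peak was taken, and intergenic peaks carry none. The deposited distance runs from the peak centre to a transcription start, and peak starts lie on multiples of 200 bp. Coordinates are as deposited.

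The scores are not counts, so log2(score + 1) of autosomal peaks with a mean score over 30 was tested with limma 3.58.1 in R 4.3.3 (lmFit, eBayes with trend, genotype as the term), with Benjamini-Hochberg adjustment over all 25815 peaks. Fold changes on this scale understate those of low peaks. Gene sums were tested with two-sided exact permutation over libraries. The fit was tested on simulated data. Members and gene lists were chosen with earlier results of these data known. Library values are given for every called peak and, in each gene, for the peak with the highest mean score per kb and the one with the largest absolute log2 fold change, and of each list for up to 2 called peaks of smallest adjusted p per direction, except 1 peak that is not reported here. Starts, exons and gene ends are from the GENCODE annotation, promoters from RefSeq and sequence from GRCm38. Alternatives covered pseudocount, score limit, scaling, variance, thresholds, replicate block, sex chromosomes, each library left out and peak assignment. The variance of each peak alone, fold changes relative to the median and shares within a gene were added after seeing the data. Correlations of the deviations of same-numbered Ctrl and Kmt5b sKO libraries were -0.0094, 0.011 and -0.027, so numbers were not taken as pairs.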

Additional observations from a re-analysis of the deposited data

How the results depend on the processing

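Rescaling left fewer member peaks called higher, 0 when libraries were centred on the median peak, 1 after quantile normalization, 2 at the same total and 2 relative to the median fold change, where 9.73%, 8.02%, 21.6% and 14.1% of all peaks were called. A mean score over 100 left 2 (12.3% of all peaks), the variance of each peak alone 2 (21.1%) and a fold over 2 left 0 (14.2%). The number called lower was 5 after centring (Pax7 peaks 4, 8 and 9, Myog peak 1 and Mef2a peak 6), 2 relative to the median (Pax7 peaks 4 and 9) and 1 with no fold minimum, where the shares of all peaks were 13.2%, 6.99% and 3.15%. The median log2 fold change of the member peaks was -0.073 with the same total, -0.34 centred, -0.21 after quantile normalization and -0.22 relative to the median. With 1 library left out it ran from 0.055 to 0.32, the highest without Ctrl replicate 2, while 3 to 4 member peaks were called higher (3 without Ctrl replicate 1, where 30.2% of all peaks were) and 0 lower. Of all tested peaks, 5579 were then called higher and 805 lower with the same total, 2512 and 3410 centred, and 2071 and 1988 after quantile normalization, beside 8484 and 228. Fewer peaks were tested with a mean score over 100, and for the other settings the cause was not tested.

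Of the 25 tested member peaks, 14 changed sign when centred, 13 relative to the median, 10 after quantile normalization and 8 with the same total. Among the 13 tested peaks named by the rule, the values were as follows. Centred on the median peak, the log2 fold change was -0.22 for Myod1 peak 1, -0.090 for Mef2c peak 1, -0.34 for Mef2c peak 5, -0.14 for Mef2d peak 1, -0.28 for Mef2d peak 2 and -0.15 for Six4 peak 3. After quantile normalization it was -0.21 for Mef2c peak 1, -0.44 for Mef2c peak 5 and -0.28 for Six4 peak 3. With the same total it was -0.073 for Mef2c peak 5 and -0.0038 for Mef2d peak 2. Relative to the median it was -0.085 for Myod1 peak 1, -0.22 for Mef2c peak 5, -0.0082 for Mef2d peak 1, -0.15 for Mef2d peak 2 and -0.028 for Six4 peak 3. With 1 library left out it ran from -0.41 to 0.0065 for Myog peak 1, from -0.078 to 0.79 for Mef2c peak 1 (0.79 and called without Kmt5b sKO replicate 2) and from -0.17 to 0.41 for Mef2c peak 5.

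Mef2a peak 4 kept its call in all settings but centring (0.47) and a fold over 2. Mef2a peak 5 lost it when centred (0.51), after quantile normalization (0.53), with its own variance and with a fold over 2. Six4 peak 1 lost it with the same total (0.56), centred (0.28), after quantile normalization (0.42), relative to the median (0.41) and with a fold over 2. Mef2a peak 1 lost it in 9 settings, each rescaling among them. With the replicate block, 4 member peaks were called higher and 0 lower, and it changed no call of a named member peak.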
